A study of Mus musculus with 47 samples.

Results

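Simple epithelia are built from a small set of structural genes, and 10 of them are described here across mouse embryonic stem cells (ESC) and the neural progenitor cells (NPC) made from them. The set is a list of names, put together with earlier results of these data known: the keratins Krt7, Krt8, Krt18 and Krt19, the claudins Cldn4, Cldn6 and Cldn7, the surface protein gene Epcam, the E-cadherin gene Cdh1 and the transcription factor gene Elf3. All 10 were in the table of 35856 gene symbols, and all 10 were at 1 TPM (transcripts per 1000000) or more in enough libraries to be tested at both stages.

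The series is a degron study of Polycomb repressive complex 2 (PRC2), which places the repressive mark H3K27me3 on histones. SUZ12 is a core subunit, and MTF2 and JARID2 are accessory subunits that help the complex find its targets. Polyadenylated RNA was sequenced from 47 libraries in 16 groups, given by 4 lines, 2 stages and auxin or no auxin. Groups held 3 biological replicates, except SUZ12-AID NPC with auxin, which held 2.

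Every line was C57BL/6 and carried Tir1, the plant receptor that directs proteins with an auxin-inducible degron (AID) to destruction when auxin is added. The tagged lines were SUZ12-AID, MTF2-AID and AID-JARID2, and the remaining line was untagged with Tir1. Auxin was indole-3-acetic acid at 50 µM, given for 12 hours in ESC and for the 5 days of differentiation in NPC, and untreated cells of the same line and stage were the controls. ESC grew without serum in 100 U/ml LIF with the inhibitors CHIR99021 at 3 µM and PD0325901 at 1 µM. Differentiation took 72 hours in 10 ng/ml bFGF and a further 48 hours in 500 nM SAG, an agonist of the Hedgehog pathway. The labels name 1 line for each tag, so an effect of a tag and an effect of its line cannot be told apart. Since a degron removes protein and not RNA, these data hold no check of the depletion, and Suz12 RNA was itself higher by 1.06 ± 0.12 (log2, SE; limma, adjusted p = 1.01e-07) in SUZ12-AID NPC with auxin.

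Keratins are intermediate filament proteins that form obligate pairs of a type II member (Krt7, Krt8) and a type I member (Krt18, Krt19), and the pair Krt8 and Krt18 is the first made in the embryo, in the trophectoderm. Claudins are the strand-forming proteins of tight junctions, E-cadherin holds neighbouring cells together at adherens junctions, and Epcam is a surface glycoprotein of epithelia and of pluripotent cells. Elf3 is an ETS family activator of epithelial genes. Mouse ESC are themselves epithelial in part and depend on E-cadherin for compact colonies, whereas neural induction exchanges E-cadherin for N-cadherin (Cdh2).

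The starts of the genes are shown because the members moved together in NPC, while their starts differ in sequence. RefSeq (GRCm38.p6) holds a start for 8 of the 10 genes, and Krt19 and Cdh1 are named only. The stretches of 300 bases below run from 250 bases before the start to 50 bases after it, 5′ to 3′ on the gene's strand, with each CpG in capitals, since CpG-rich starts are the usual sites of PRC2. They are the neighbouring pair Krt18 and Krt8, which share an intervening stretch of 23697 bases with 0 annotated genes on chromosome 15, and the members with the largest changes in NPC, Cldn6, Cldn4 and Epcam.
Krt18: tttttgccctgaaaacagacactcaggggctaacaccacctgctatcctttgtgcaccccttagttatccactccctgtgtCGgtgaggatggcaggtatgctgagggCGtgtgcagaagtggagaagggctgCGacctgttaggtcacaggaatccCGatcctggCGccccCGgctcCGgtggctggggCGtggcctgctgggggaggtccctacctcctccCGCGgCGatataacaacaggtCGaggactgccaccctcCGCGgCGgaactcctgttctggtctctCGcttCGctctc
Krt8: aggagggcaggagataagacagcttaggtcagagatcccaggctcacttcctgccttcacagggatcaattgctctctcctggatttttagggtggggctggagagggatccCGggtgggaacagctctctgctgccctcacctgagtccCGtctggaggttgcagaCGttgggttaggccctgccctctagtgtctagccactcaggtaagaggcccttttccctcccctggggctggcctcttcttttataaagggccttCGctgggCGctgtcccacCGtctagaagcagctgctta
Cldn6: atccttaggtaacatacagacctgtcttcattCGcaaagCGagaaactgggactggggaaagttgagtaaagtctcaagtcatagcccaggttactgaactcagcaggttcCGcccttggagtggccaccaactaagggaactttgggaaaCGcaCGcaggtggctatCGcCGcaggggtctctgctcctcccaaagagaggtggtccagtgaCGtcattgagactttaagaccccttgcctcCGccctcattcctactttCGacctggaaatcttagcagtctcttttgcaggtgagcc
Cldn4: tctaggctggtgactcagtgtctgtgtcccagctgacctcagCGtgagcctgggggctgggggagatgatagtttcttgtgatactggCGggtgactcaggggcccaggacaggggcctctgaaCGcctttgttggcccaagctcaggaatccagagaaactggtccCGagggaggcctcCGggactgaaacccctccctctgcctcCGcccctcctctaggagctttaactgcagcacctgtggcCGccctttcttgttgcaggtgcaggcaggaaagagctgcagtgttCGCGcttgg
Epcam: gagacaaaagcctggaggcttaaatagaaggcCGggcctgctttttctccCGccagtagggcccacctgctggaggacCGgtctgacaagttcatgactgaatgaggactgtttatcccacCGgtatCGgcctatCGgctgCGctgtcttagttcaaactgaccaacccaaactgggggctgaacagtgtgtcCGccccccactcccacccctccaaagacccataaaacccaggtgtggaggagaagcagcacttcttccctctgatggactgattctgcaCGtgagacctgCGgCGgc

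These lie at chr15:102027966-102028265 (plus strand), chr15:102004293-102004592 (minus strand), chr17:23679115-23679414 (plus strand), chr5:134946885-134947184 (minus strand) and chr17:87635729-87636028 (plus strand), in the order printed. The 32851 starts in the table had a median of 7 CpG, with quartiles of 3 and 20. Krt18 had 17 CpG and Krt8 had 6, so the members of this pair stand on opposite sides of the median. Cldn6 had 10, Cldn4 had 9 and Epcam had 11. Of the other members, Krt7 also lies on chromosome 15, Krt19 and Cldn7 on chromosome 11, Cdh1 on chromosome 8 and Elf3 on chromosome 1 (GENCODE M21, GRCm38). Of the starts not printed, Krt7 had 21, Elf3 had 12, and the pair of starts of Cldn7 had 7 and 17.

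The starts were searched on both strands for 4 motifs: GGGCGG (the GC box), TATAAA (the TATA box), CACCTG (the E box type bound by Snail and Zeb repressors) and AACCNGTT (the Grainyhead-like type). None of these motifs contains another. CACCTG was in 8 of the 9 member starts, against 20.2% of all starts, and each of the 8 genes with an entry had it at a start. GGGCGG was in 5 of the 9, against 35.7% of all starts. TATAAA was in 1 of the 9, that of Krt8, against 13.6%, and AACCNGTT was in 0 of the 9, against 2.09%. A match says that these letters are in the window and nothing about binding.

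All 47 libraries carry the name of the same sequencing run. Their depth, recovered from the steps of the TPM values, was 3.24 to 8.71 M reads (M, 1000000), with 13018 to 14728 genes at 1 TPM or more. A gene at 1 TPM therefore rests on few reads. In ESC the summed TPM of 6 pluripotency markers was 3140 to 3660 and all 6 were at 1 TPM or more in every group. In untagged NPC it was 15.1 to 18.4 TPM with auxin and 18.5 to 21.7 TPM untreated, while 7 neural progenitor markers summed to 1610 to 1810 TPM with auxin and 1670 to 1830 TPM untreated. SUZ12-AID NPC with auxin went against their label in part, with 546 to 559 TPM of pluripotency markers and 372 to 389 TPM of neural progenitor markers. In such bulk libraries, fewer cells of a type and less RNA per cell cannot be told apart.

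**Figure D1:**
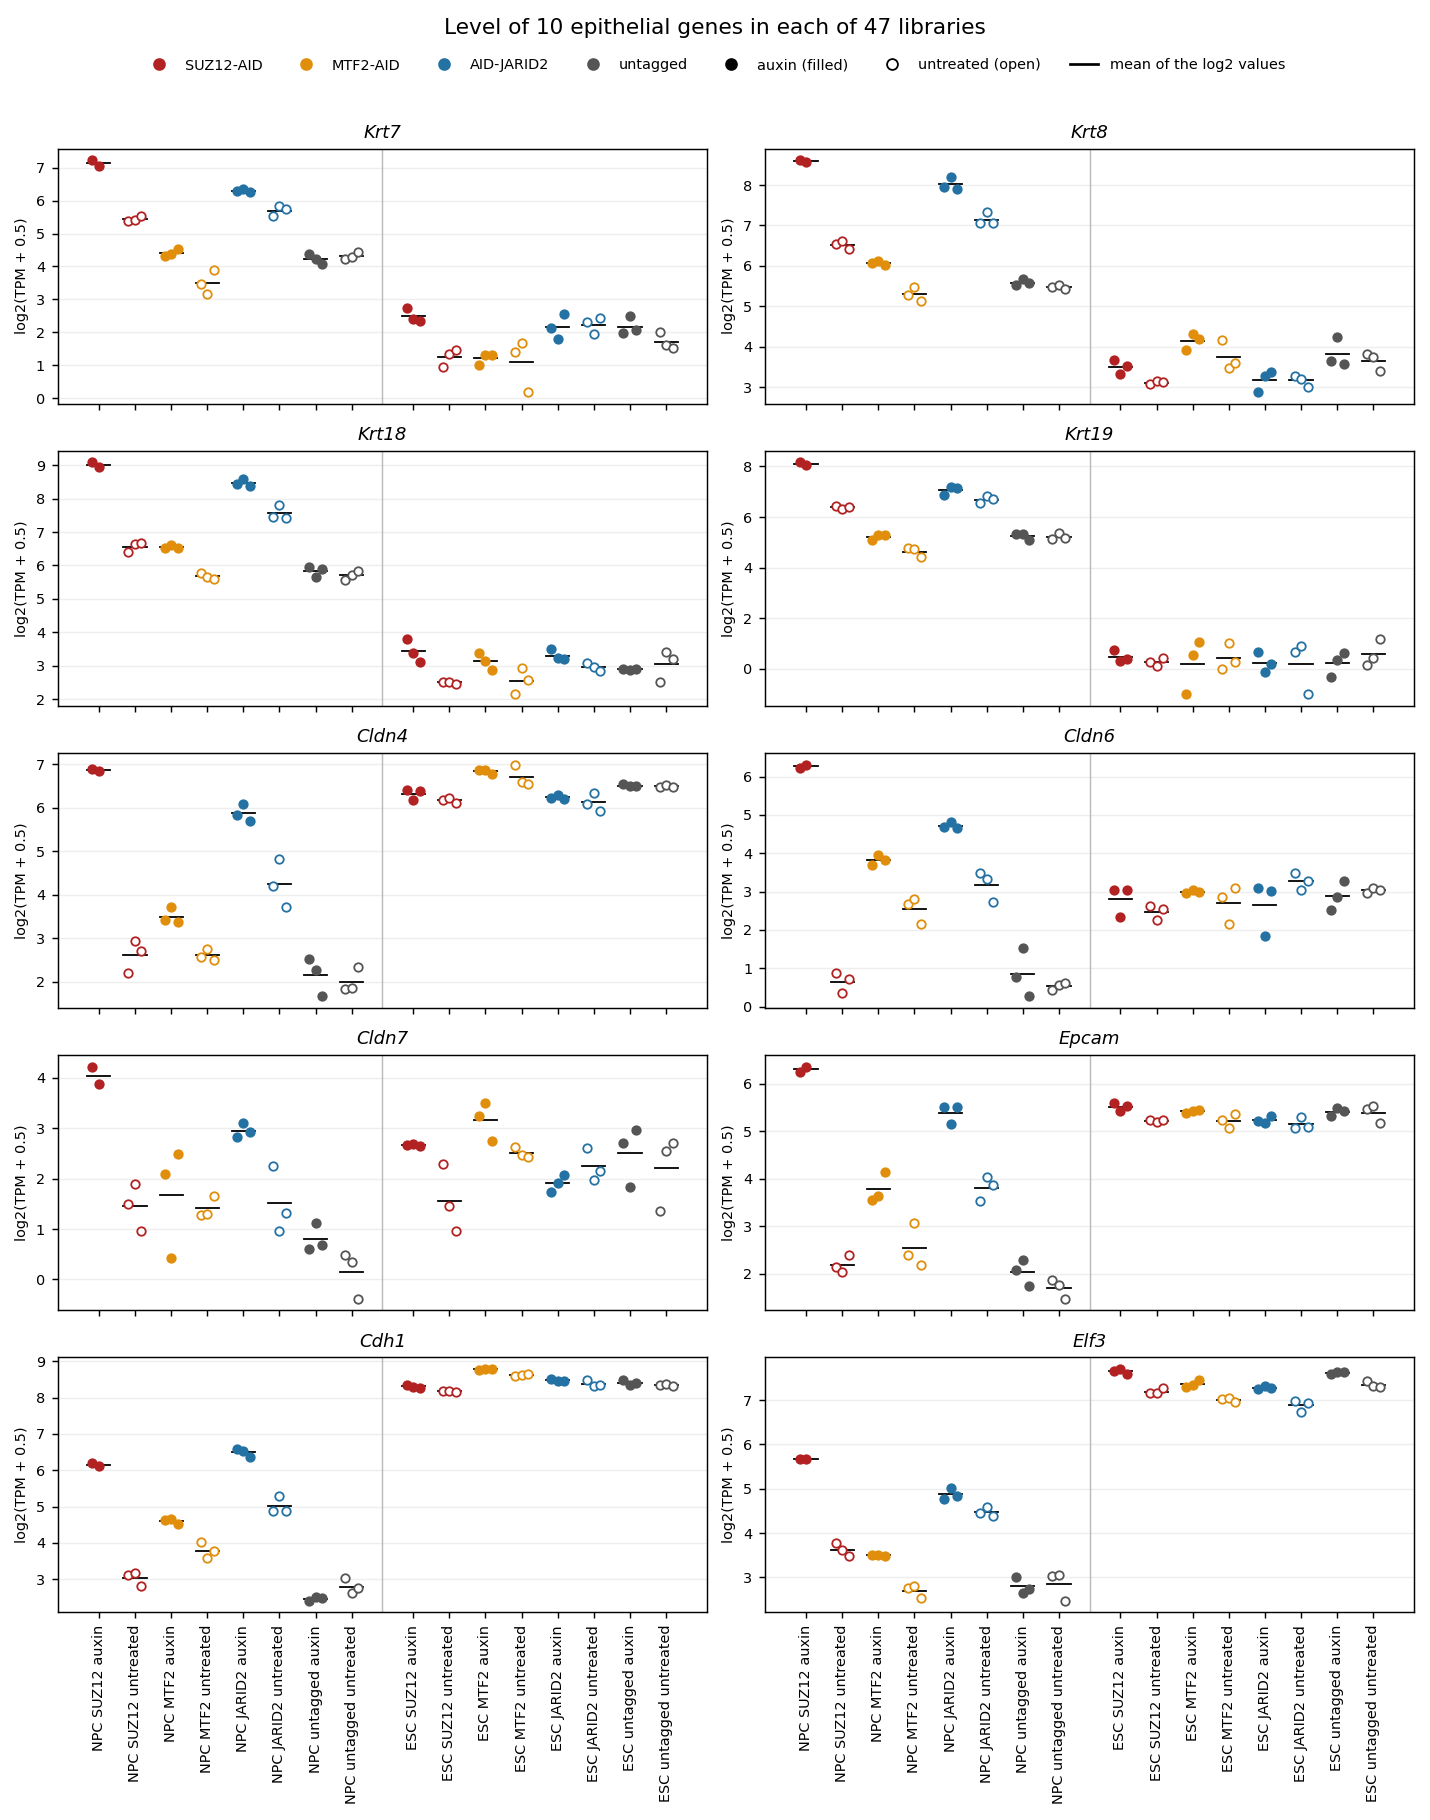
Level of each member in every library. The vertical axis is log2(TPM + 0.5), points are libraries, filled with auxin and open untreated, lines are means of the log2 values, and NPC groups stand left of ESC groups. The keratins are higher in NPC than in ESC in every line, and the other 6 members are lower in untagged NPC than in untagged ESC and higher in SUZ12-AID NPC with auxin than untreated.

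In the untagged line without auxin, the 4 keratins were higher in NPC than in ESC and the other 6 genes were lower. Krt19 was 35.0, 40.9 and 35.4 TPM in untagged NPC, against 0.606, 0.860 and 1.78 TPM in untagged ESC, where 11 reads in all stood behind it. Over the 24 ESC libraries Krt19 ranged between 0 and 1.78 TPM with a median of 0.796, and it was at 0 in 2 of them. Krt18 was 46.3, 52.4 and 56.2 TPM in untagged NPC and 5.21, 10.2 and 8.68 TPM in untagged ESC, and its partner Krt8 averaged 44.1 ± 1.57 TPM in NPC and 12.1 ± 1.88 TPM in ESC (SD, n = 3 each).

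Cdh1 was the member with the largest fall, to 7.60, 5.57 and 6.27 TPM in untagged NPC, against 324, 330 and 318 TPM in untagged ESC. Elf3 averaged 6.88 ± 1.59 TPM in NPC and 162 ± 7.42 TPM in ESC, Cldn4 averaged 3.56 ± 0.847 TPM and 89.7 ± 1.74 TPM, and Epcam averaged 2.77 ± 0.447 TPM and 41.9 ± 5.52 TPM (SD, n = 3 each). No untagged NPC library reached any untagged ESC library for these 4 genes. Cldn6 and Cldn7 were low at both stages, at 0.953 ± 0.0919 and 0.644 ± 0.330 TPM in untagged NPC and 7.67 ± 0.340 and 4.48 ± 2.12 TPM in untagged ESC. In untagged NPC 12 reads of Cldn6 and 8 of Cldn7 stood behind these values.

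On the log2(TPM + 0.5) scale, which understates the change of low genes, Cdh1 fell by 5.55 ± 0.10 (SE; limma, adjusted p = 2.25e-34) and Krt19 rose by 4.64 ± 0.37 (adjusted p = 9.93e-14). The 4 members called higher compare with 47.6% of the 17760 genes tested, and the 6 called lower with 28.5%, so a stage call is common among all genes. Another scaling of the libraries, by the median of ratios, lowers every stage change by about the same amount, and the shift of the median gene was between -0.361 and -0.174 over the 8 stage comparisons. None of the 10 untagged calls depended on it.

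In NPC, 5 days of auxin raised all 10 members in the SUZ12-AID line. The median change was 2.52 (log2) and the range 1.70 to 5.62, where the median of all 16469 genes tested was -0.10 and 23.9% of genes were called higher. In the MTF2-AID line 9 of 10 were called higher, with a median of 0.85, against 5.03% of all genes. In the AID-JARID2 line 10 of 10 were called higher, with a median of 1.17, against 9.28%. No member was called lower in these lines, where 33% of all genes were in SUZ12-AID, 3.11% in MTF2-AID and 15.7% in AID-JARID2. Scaling by the median of ratios raised the median gene in SUZ12-AID by 0.123 and changed no member's call in that line.

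In the untagged line auxin gave 0 calls among the members and 0% over all genes by limma, with 1180 genes at an unadjusted p under 0.05, and the members' median change was 0.12. None of 10 members was called under the other settings tried, limma-voom on recovered reads included.

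The keratins were raised by 3.26-fold to 5.44-fold in SUZ12-AID NPC. Krt18 was 542 and 488 TPM with auxin, against 83.6, 99.0 and 101 TPM untreated, a change of 2.44 ± 0.12 (log2, SE; limma, adjusted p = 1.67e-13). Krt8 was 392 and 378 TPM with auxin and 91.9, 97.5 and 85.3 TPM untreated, a change of 2.07 ± 0.10 (adjusted p = 2.44e-13). The libraries of the 2 groups did not overlap for either gene, and 3689 reads of Krt18 and 3563 of Krt8 stood behind the 2 auxin libraries.

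Krt19 was 285 and 268 TPM with auxin and 86.5, 79.2 and 83.3 TPM untreated. Krt7 was 149 and 132 TPM with auxin, against 41.4, 41.7 and 45.4 TPM untreated. Krt19 rose by 1.73 ± 0.11 and Krt7 by 1.70 ± 0.14 on the log2 scale, and neither gene's groups overlapped. The 4 keratins together made up 1270 to 1370 TPM with auxin and 303 to 317 TPM untreated.

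The balance of the pair was read from ratios of TPM, with no test. The ratio of Krt8 to Krt18 was 0.723 to 0.774 in SUZ12-AID NPC with auxin and 0.847 to 1.10 untreated, and the ratio of type II to type I keratin RNA was 0.654 to 0.675 with auxin and 0.710 to 0.783 untreated, so neither ratio's groups overlapped. Across the other 6 NPC groups the type II to type I ratio lay between 0.602 and 0.774, and in ESC, at low levels, between 0.914 and 4.46.

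All 4 keratins also rose in AID-JARID2 NPC. Krt18 was 344, 387 and 330 TPM with auxin and 176, 226 and 170 TPM untreated, a change of 0.90 ± 0.10 (adjusted p = 1.19e-06). Krt8 rose by 0.87 ± 0.09, Krt7 by 0.61 ± 0.13 and Krt19 by 0.38 ± 0.10. Krt19, at 118, 145 and 141 TPM with auxin and 92.2, 112 and 105 TPM untreated, had groups that did not overlap, and lost its call without AID-JARID2 untreated replicate 1 (0.31).

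In MTF2-AID NPC the 4 keratins rose as well. Krt18 was 91.5, 97.9 and 91.9 TPM with auxin and 54.2, 49.8 and 47.7 TPM untreated, a change of 0.89 ± 0.10 (adjusted p = 1.97e-05). Krt7 rose by 0.90 ± 0.13, Krt8 by 0.78 ± 0.09 and Krt19 by 0.58 ± 0.10. With auxin, Krt7 and Krt19 reached 20.8 ± 1.45 and 36.7 ± 2.92 TPM in MTF2-AID NPC, and untagged NPC with auxin held 18.2 ± 1.94 and 37.5 ± 3.35 TPM (SD, n = 3 each).

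Of the 10 members, Cldn6 and Cldn4 had the largest changes in SUZ12-AID NPC. Cldn6, a claudin of embryonic epithelia and pluripotent cells, was 73.9 and 79.0 TPM in SUZ12-AID NPC with auxin, against 1.33, 0.767 and 1.15 TPM untreated, where 14 reads stood behind the 3 libraries. This was a change of 5.62 ± 0.27 (log2, SE; limma, adjusted p = 1.47e-13), or 49.1-fold on that scale. Cldn6 with auxin also stood above every ESC library, whose range was 3.11 to 10.6 TPM.

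Cldn4, which tightens the junction against cations, was 119 and 114 TPM with auxin and 4.11, 7.09 and 6.00 TPM untreated in SUZ12-AID NPC, a change of 4.26 ± 0.28 (adjusted p = 7.19e-11). Its level overlapped the highest of the ESC groups, MTF2-AID ESC, which held 109 to 117 TPM with auxin. Cldn7 was lower, at 18.1 and 14.1 TPM with auxin and 2.33, 3.21 and 1.45 TPM untreated, a change of 2.59 ± 0.45 (adjusted p = 5.68e-05). No library with auxin overlapped an untreated library for any of the 3 claudins.

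In AID-JARID2 NPC, Cldn4 was 56.4, 67.1 and 51.5 TPM with auxin and 17.8, 28.0 and 12.6 TPM untreated, a change of 1.62 ± 0.25 (adjusted p = 5.18e-05). Cldn6 rose by 1.54 ± 0.24, to 25.8 ± 1.48 TPM with auxin, against 8.76 ± 2.37 TPM untreated (SD, n = 3 each). Cldn7 rose by 1.44 ± 0.40 (adjusted p = 0.0121), and its call was lost without AID-JARID2 untreated replicate 2 (1.16).

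In MTF2-AID NPC, Cldn6 was 12.5, 14.9 and 13.6 TPM with auxin and 5.84, 6.54 and 3.99 TPM untreated, a change of 1.27 ± 0.24 (adjusted p = 0.00217). Cldn4 averaged 10.8 ± 1.49 TPM with auxin and 5.63 ± 0.580 TPM untreated (SD, n = 3 each), a change of 0.88 ± 0.25 (adjusted p = 0.0315). That call was lost when any of its 6 libraries was left out (0.78 to 0.96) and with limma-voom on recovered reads (0.94). Cldn7 was not called, at 3.74, 0.846 and 5.09 TPM with auxin and 1.93, 1.96 and 2.66 TPM untreated. The second of these auxin libraries held 2 reads of Cldn7.

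Epcam was 75.6 and 81.8 TPM in SUZ12-AID NPC with auxin, against 3.94, 3.59 and 4.77 TPM untreated, a change of 4.11 ± 0.23 (log2, SE; limma, adjusted p = 2.89e-12). Cdh1 was 72.8 and 68.4 TPM with auxin and 8.17, 8.43 and 6.49 TPM untreated, a change of 3.12 ± 0.14 (adjusted p = 8.07e-14). Elf3 was 50.4 and 50.3 TPM with auxin and 13.3, 11.7 and 10.6 TPM untreated, a change of 2.05 ± 0.15 (adjusted p = 1.87e-10). Epcam passed its ESC range of 33.1 to 48.2 TPM, whereas Cdh1 and Elf3 stayed under theirs, 285 to 443 and 106 to 208 TPM.

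Cdh1 was highest among NPC groups in AID-JARID2 with auxin, at 96.2, 91.9 and 82.6 TPM, against 28.7, 38.8 and 28.7 TPM untreated, a change of 1.49 ± 0.13 (adjusted p = 1.90e-08). The AID-JARID2 libraries with auxin did not overlap those of SUZ12-AID with auxin. For the 9 other genes SUZ12-AID with auxin was the highest NPC group. Epcam rose by 1.58 ± 0.21 in AID-JARID2 NPC and Elf3 by 0.39 ± 0.13 (adjusted p = 0.0365). The call of Elf3 was lost under 5 of 13 alternatives, whose adjusted p ranged between 0.00269 and 0.144: without a filter on low values (0.39), without untreated replicate 1 (0.38) or 3 (0.35), and without auxin replicate 2 (0.32) or 3 (0.42).

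In MTF2-AID NPC Epcam rose by 1.23 ± 0.21 (adjusted p = 0.000868), Cdh1 by 0.81 ± 0.13 and Elf3 by 0.80 ± 0.13. Cdh1 was 24.2, 24.5 and 22.4 TPM with auxin and 15.6, 11.4 and 13.2 TPM untreated, with no overlap. Elf3 was 10.9, 10.9 and 10.6 TPM with auxin and 6.27, 6.46 and 5.28 TPM untreated. In untagged NPC Cdh1 was 4.78, 5.19 and 5.07 TPM with auxin and 7.60, 5.57 and 6.27 TPM untreated, a change of -0.33 ± 0.13 that was not called (adjusted p = 0.631).

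**Figure D2:**
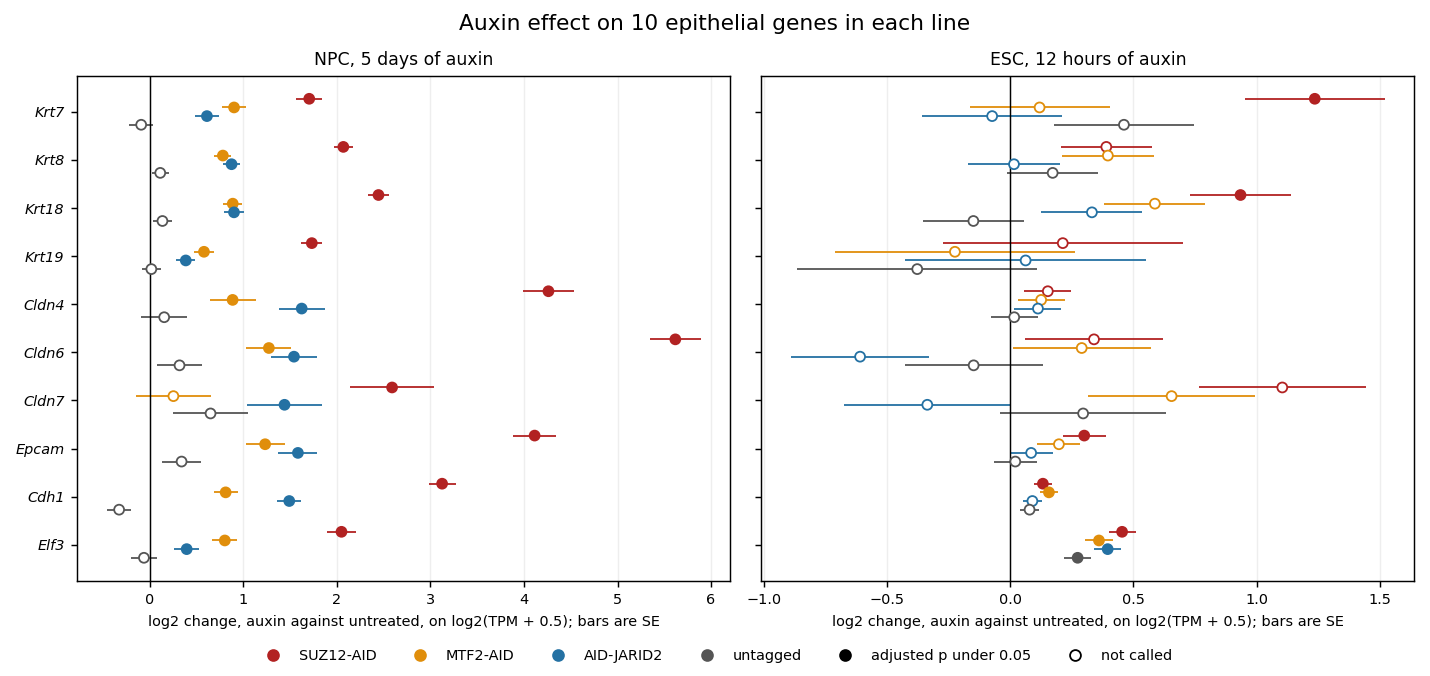
Auxin effect on each member in NPC (left) and ESC (right). The horizontal axis is the log2 change, auxin against untreated, on log2(TPM + 0.5), bars are standard errors, and filled points were called at an adjusted p under 0.05; the 2 panels have different axes. In NPC the SUZ12-AID changes run between 1.70 and 5.62, and no point of the untagged line is filled.

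With the untagged auxin effect subtracted, all 10 members kept a call in SUZ12-AID NPC, against 18.8% of all genes called higher in that contrast. In AID-JARID2 NPC 7 of 10 were called higher (Krt7, Krt8, Krt18, Cldn4, Cldn6, Epcam and Cdh1), against 3.1% of all genes. In MTF2-AID NPC 5 of 10 were called higher (Krt7, Krt8, Krt18, Cdh1 and Elf3), against 1.07%. The largest of these differences outside SUZ12-AID was that of Cdh1 in AID-JARID2, 1.82 ± 0.18 (adjusted p = 8.25e-07). Some of these calls moved with the settings. Cldn6 in AID-JARID2 lost its call under 9 of 19 alternatives, Elf3 in MTF2-AID under 8 of 19, and Cldn7 in SUZ12-AID under 2 of 18, a pseudocount of 0.1 (1.83) and without SUZ12-AID auxin replicate 1 (1.77).

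The lines were then compared with each other, as differences of auxin effects in NPC. SUZ12-AID exceeded MTF2-AID for 10 of 10 members, against 15.7% of all genes called higher, and by 0.80 ± 0.19 for Krt7 to 4.35 ± 0.36 for Cldn6. It exceeded AID-JARID2 for 9 of 10, against 13.5%, the exception being Cldn7 at 1.15 ± 0.61 (adjusted p = 0.163), which limma-voom on recovered reads did call (1.38). MTF2-AID and AID-JARID2 differed in 1 member, Cdh1, whose effect was lower in MTF2-AID by -0.68 ± 0.18 (adjusted p = 0.0214), where 1.82% of all genes were called lower. That call was lost without AID-JARID2 untreated replicate 1 (-0.61) or 3 (-0.61), or MTF2-AID untreated replicate 1 (-0.57), and a second member, Cldn4, was called without AID-JARID2 untreated replicate 2 (-1.03). The other 9 members were not called, which does not show that the lines act alike: the difference for Krt18 was -0.01 ± 0.15, and that for Cldn4 was -0.74 ± 0.35.

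Before any auxin, the tagged NPC already differed from untagged NPC. In untreated AID-JARID2 NPC all 10 members were higher than in untreated untagged NPC, against 11.8% of all genes, with a median of 1.77 (log2) and a range of 1.36 to 2.64. Cldn6 was 10.6, 9.60 and 6.08 TPM in AID-JARID2 NPC, against 0.850, 0.982 and 1.03 TPM in untagged NPC, a difference of 2.64 ± 0.24 (limma, adjusted p = 4.09e-08). Cdh1 was 28.7, 38.8 and 28.7 TPM in AID-JARID2, against 7.60, 5.57 and 6.27 TPM in untagged. Krt18 averaged 191 ± 30.8 TPM in AID-JARID2 and 51.6 ± 4.99 TPM in untagged (SD, n = 3 each), a difference of 1.87 ± 0.10. No library of these groups overlapped for the 3 genes. Cldn7, at 1.36 ± 0.40, lost its call without untagged NPC untreated replicate 3 (1.10) or AID-JARID2 untreated replicate 1 (0.99).

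In untreated SUZ12-AID NPC 5 members were higher than in untagged NPC, the 4 keratins and Elf3, against 0.668% of all genes. Krt19 was 86.5, 79.2 and 83.3 TPM in SUZ12-AID, against 35.0, 40.9 and 35.4 TPM in untagged, a difference of 1.15 ± 0.10 (adjusted p = 6.79e-07). Krt7 differed by 1.12 ± 0.13, Krt8 by 1.04 ± 0.09, Krt18 by 0.87 ± 0.10 and Elf3 by 0.76 ± 0.13. Elf3 lost its call with only the compared groups in the fit (adjusted p = 0.0738). The other 5 were not called, and among them Cldn6 (0.11 ± 0.24) and Cdh1 (0.23 ± 0.13) had the smallest differences.

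Untreated MTF2-AID NPC differed in both directions. Cldn6 was 5.84, 6.54 and 3.99 TPM in MTF2-AID, against 0.850, 0.982 and 1.03 TPM in untagged, a difference of 2.01 ± 0.24 (adjusted p = 1.39e-05). Cdh1 was higher by 1.00 ± 0.13 and Epcam by 0.85 ± 0.21, and these 3 compare with 6.19% of all genes called higher. Krt7 was lower by -0.80 ± 0.13 and Krt19 by -0.59 ± 0.10, against 2.57% of all genes called lower. The Epcam call was lost without MTF2-AID untreated replicate 2 (0.59) or untagged untreated replicate 3 (0.73), and with 2 other settings (0.84 and 0.85).

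In ESC, 12 hours of auxin gave fewer calls among the members in each tagged line than 5 days did in NPC. In SUZ12-AID ESC 5 of 10 were called higher (Krt7, Krt18, Epcam, Cdh1 and Elf3), against 5.89% of all genes, with a median of 0.36 (log2). Krt7 was 6.13, 4.82 and 4.58 TPM with auxin and 1.44, 2.05 and 2.28 TPM untreated, a change of 1.24 ± 0.28 (limma, adjusted p = 0.0121) that rests on 64 and 33 reads. Krt18 was 13.3, 9.94 and 8.20 TPM with auxin and 5.25, 5.22 and 4.95 TPM untreated, a change of 0.93 ± 0.21 (adjusted p = 0.00944).

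The libraries of both genes did not overlap, but the calls moved with the settings. Krt7 lost its call without SUZ12-AID auxin replicate 1 (1.12) or untreated replicate 1 (1.08), and Krt18 without SUZ12-AID auxin replicate 1 (0.76). Epcam (0.30 ± 0.09) and Cdh1 (0.13 ± 0.04) lost theirs under 9 and 8 of 13 alternatives. Scaling by the median of ratios, which took away the median change of all genes of 0.095, gave 0.20 for Epcam and 0.03 for Cdh1, neither of them called.

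Elf3 was the 1 member called in all 4 lines in ESC, the untagged line included. It was 201, 208 and 191 TPM with auxin and 142, 142 and 154 TPM untreated in SUZ12-AID ESC, a change of 0.45 ± 0.06 (adjusted p = 4.45e-05). It rose by 0.36 ± 0.06 in MTF2-AID ESC, by 0.40 ± 0.06 in AID-JARID2 ESC and by 0.27 ± 0.06 in untagged ESC (adjusted p = 0.0332). The AID-JARID2 call was lost with only the compared groups in the fit (adjusted p = 0.115). In untagged ESC it was 191, 199 and 198 TPM with auxin and 171, 158 and 157 TPM untreated, with no overlap, in a line with no degron target.

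The untagged call of Elf3 was lost under 7 of 13 alternatives, whose changes ranged between 0.25 and 0.31. The libraries whose removal ended it were untreated replicate 2 (0.26) or 3 (0.25) and auxin replicate 1 (0.29), 2 (0.26) or 3 (0.27). Elf3 made the whole count in AID-JARID2 and in untagged ESC, against 0.113% and 0.0596% of all genes, and with Cdh1 (0.16 ± 0.04) the count of 2 in MTF2-AID ESC, against 0.629%. Cdh1 in MTF2-AID lost its call when any of its 6 libraries was left out (0.15 to 0.17).

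With the untagged effect subtracted, 0 of 10 members were called in ESC in any tagged line by limma. In that contrast 0.192% of all genes were called in either direction for SUZ12-AID, 0.00662% for MTF2-AID and 0% for AID-JARID2. Over all genes 1657, 885 and 749 were at an unadjusted p under 0.05 there, and limma-voom on recovered reads also called 0 members. The difference for Krt18 in SUZ12-AID ESC was 1.08 ± 0.29 (adjusted p = 0.129).

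Between untreated ESC of the tagged lines and untagged ESC few members were called. Cdh1 was lower in SUZ12-AID by -0.16 ± 0.04 (1.18% of all genes were called lower) and higher in MTF2-AID by 0.28 ± 0.04 (7.32% called higher). Elf3 was lower in MTF2-AID by -0.34 ± 0.06 (8.39% called lower) and in AID-JARID2 by -0.46 ± 0.06, where Cldn4 was also lower by -0.37 ± 0.10 (3.22% called lower). Cdh1 was 292, 292 and 285 TPM in SUZ12-AID, 389, 391 and 402 TPM in MTF2-AID and 324, 330 and 318 TPM in untagged ESC. Without any of its 6 libraries the SUZ12-AID call was lost (-0.18 to -0.15), and that of Cldn4 in AID-JARID2 without 5 of its 6 libraries (-0.38 to -0.27), all but AID-JARID2 untreated replicate 2.

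**Figure D3:**
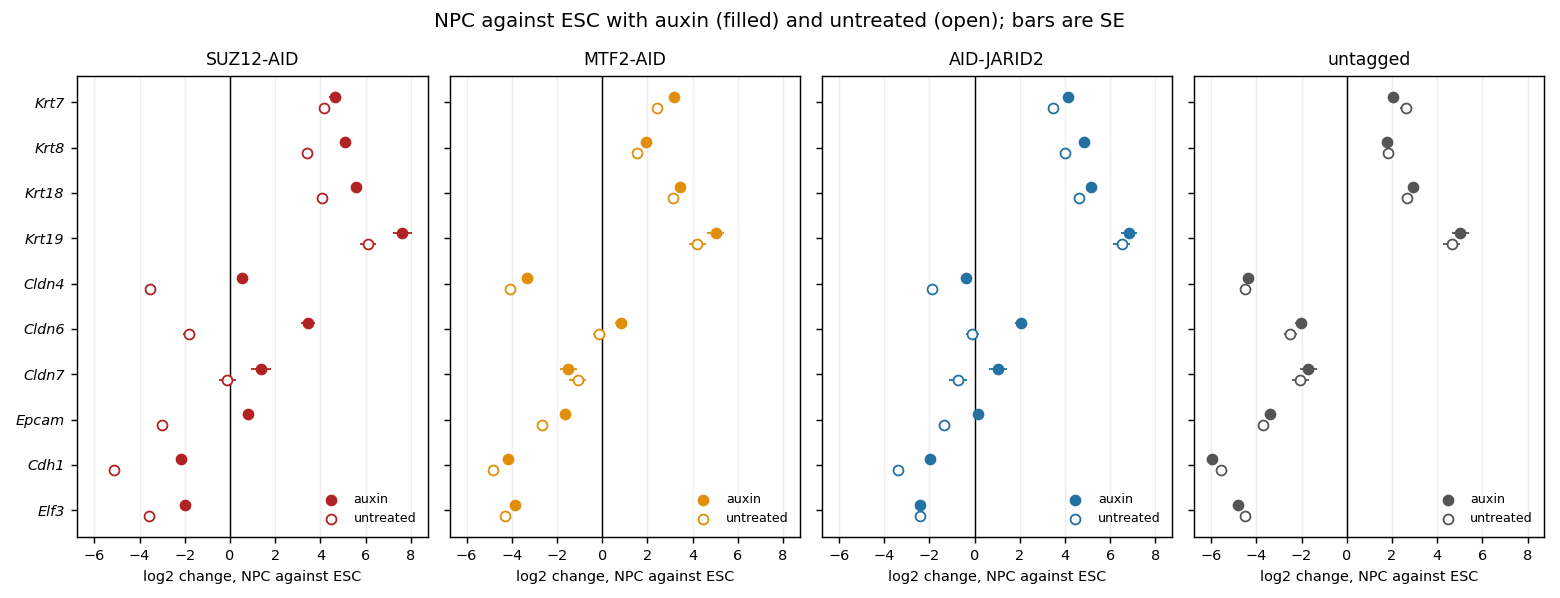
Change of each member between stages, NPC against ESC, on log2(TPM + 0.5), with auxin (filled) and untreated (open), in each line, with standard errors as bars. In SUZ12-AID, Cldn4, Epcam and Cldn6 lie below 0 untreated and above 0 with auxin, while Cdh1 and Elf3 stay below 0 in both. Auxin was given for longer in NPC than in ESC.

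In SUZ12-AID with auxin 8 members were higher in NPC than in ESC and 2, Cdh1 and Elf3, were lower, against 40.5% and 21.6% of all genes. Untreated, the same line had 4 higher and 5 lower, against 50.2% and 26.6%. Auxin was given for longer in NPC than in ESC, so comparisons of stages with auxin also compare lengths of treatment. Epcam changed by 0.78 ± 0.18 with auxin and by -3.03 ± 0.16 untreated, and Cldn6 by 3.45 ± 0.31 with auxin and -1.83 ± 0.27 untreated. Cldn4 changed by 0.55 ± 0.22 with auxin and -3.56 ± 0.19 untreated, and the first of these lost its call with median of ratios scaling (0.35), without SUZ12-AID ESC auxin replicate 2 (0.48), and without SUZ12-AID NPC auxin replicate 1 (0.52) or 2 (0.58). Cldn7, higher by 1.37 ± 0.44 with auxin, lost its call without SUZ12-AID NPC auxin replicate 1 (1.20).

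In AID-JARID2 with auxin 6 members were higher in NPC and 2 lower, against 44.4% and 25.3% of all genes, and Cldn4 (-0.37 ± 0.19) and Epcam (0.16 ± 0.16) were not called. Cldn4 was called lower with median of ratios scaling (-0.63), with limma-voom (-0.50) and with only the compared groups. Cldn7 (1.05 ± 0.39) lost its call with median of ratios scaling (0.81) and without AID-JARID2 ESC auxin replicate 1 (0.96) or NPC auxin replicate 2 (0.97). Untreated AID-JARID2 had 4 higher and 4 lower, against 47.1% and 26.3%. In MTF2-AID 5 were higher and 5 lower with auxin, against 49.2% and 25.6%, and 4 were higher and 5 lower untreated, against 48.2% and 26.7%. The fifth higher member with auxin was Cldn6 (0.83 ± 0.27), whose call was lost with median of ratios scaling (0.46). In untagged cells 4 were higher and 6 lower with auxin, against 46.1% and 29%, and 4 and 6 untreated.

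The difference itself, the stage change with auxin minus the stage change untreated, was called for 9 of 10 members in SUZ12-AID, against 18.4% of all genes called higher. Krt7 was the exception, at 0.47 ± 0.34 (adjusted p = 0.273). Every such difference sets days of auxin in NPC against hours of auxin in ESC. Stage and length of treatment therefore cannot be told apart in it. Cldn7 (1.48 ± 0.58) lost its call under 6 of 18 alternatives and Krt19 (1.52 ± 0.55) under 2 of 18, a pseudocount of 0.1 (1.43) and without SUZ12-AID NPC auxin replicate 1 (1.47). In AID-JARID2 the difference was called for 6 members, against 5.89%: Krt8, Cldn4, Cldn6, Cldn7, Epcam and Cdh1, and Cldn7 (1.78 ± 0.55) lost its call under 5 of 19 alternatives. It was called for 2 in MTF2-AID, Epcam (1.03 ± 0.23) and Cdh1 (0.65 ± 0.13), against 1.66%, and for 0 in untagged cells, against 0.00563%, by limma and by limma-voom, with 1331 of all genes at an unadjusted p under 0.05.

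Elf3 in AID-JARID2 gave the smallest value of this kind, 0.00 ± 0.14, its auxin changes in NPC and ESC being 0.39 and 0.40. Cldn6 in AID-JARID2 gave 2.15 ± 0.39 (adjusted p = 0.000114). In SUZ12-AID the values ran up to 5.28 ± 0.41 for Cldn6.

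**Figure D4:**
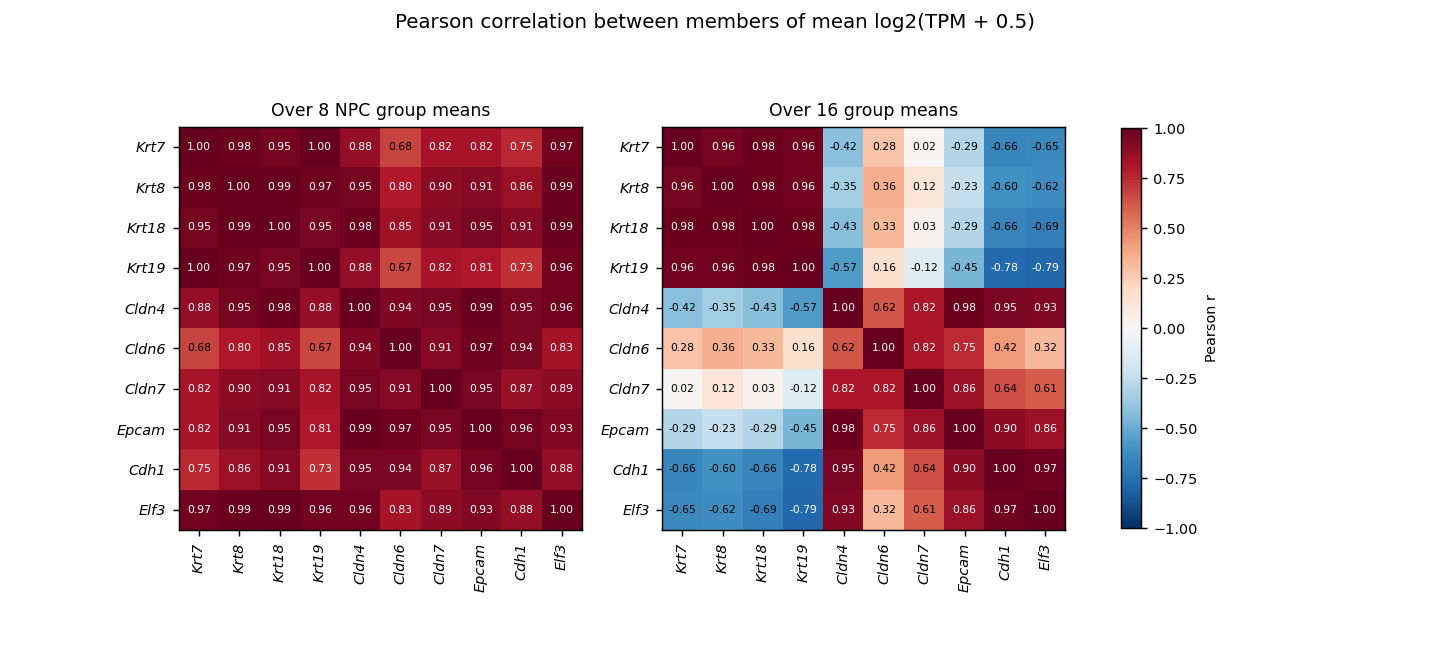
Pearson correlation between members of the mean log2(TPM + 0.5), over the 8 NPC group means (left) and over all 16 group means (right). Keratins form a block of their own over 16 means, and over the NPC means every pair is at 0.668 or more.

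Described over the 16 group means, the keratins correlated with each other at a Pearson r of 0.958 to 0.982. The other 6 members correlated with each other at 0.324 to 0.980, or at 0.609 to 0.980 with Cldn6 left aside, and keratins with the other 6 members at -0.789 to 0.362. Over the 8 NPC group means all pairs lay between 0.668 and 0.996. These points share lines and stages, so they are no independent samples.

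The genes most like each member over the 16 group means were sought among 17750 others. Krt7 was most like Hand1 (r = 0.992), Dsc2 and Nxf7, and Krt19 was most like Plac1 (r = 0.994), Igf2 and H19. Krt18 was most like Col1a2 (r = 0.994), Ninj1 and Bbx, and Krt8 like Col1a2 (r = 0.979), Zfp36l3 and Ninj1. Hand1 and Plac1 are genes of the trophoblast, and Igf2 and H19 are neighbouring imprinted genes.

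Among the other members, Cdh1 was most like Spint1 (r = 0.996), an inhibitor of epithelial surface proteases, Prkci, an atypical protein kinase C of the apical polarity complex, and Triml2. Elf3 was most like Pnldc1 (r = 0.995), Mfsd7c and Nmrk1. Cldn4 was most like Fabp3 (r = 0.992), Pik3cb and Anxa6, and Epcam like Fabp3 (r = 0.983), Diaph3 and Pik3cb. Cldn6 was most like 1700017B05Rik (r = 0.969), Tnfrsf12a and Rin1. Cldn7 was most like Casp8 (r = 0.919) and Prdm1.

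Other epithelial genes were read from lists of related function. In SUZ12-AID NPC with auxin, 10 of the 11 tested epithelial transcription and splicing factors were called higher and 1 lower. Of all genes 23.9% were called higher and 33% lower. The median change of these factors was 2.46 (log2), where that of all genes was -0.10. Tfap2c, a trophoblast and germ line factor, rose by 2.76 ± 0.17, the Grainyhead-like factor Grhl3 by 2.74 ± 0.22 and the epithelial splicing factors Esrp1 and Esrp2 by 3.82 ± 0.35 and 2.68 ± 0.25. Of 19 tested genes of the epithelial surface and of polarity 18 were higher and 1 lower (median 2.76), among them the matriptase gene St14 (4.04 ± 0.21), its inhibitors Spint1 (3.22 ± 0.17) and Spint2 (2.34 ± 0.19), and the basolateral polarity gene Llgl2 (3.19 ± 0.13).

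Of 20 tested tight junction genes and other claudins 12 were higher and 1 lower (median 1.31), against 23.9% and 33% of all genes. F11r, which encodes the junctional adhesion molecule JAM-A, rose by 3.96 ± 0.20, and Cgnl1, Lsr and Cgn rose by 2.28 ± 0.14, 1.66 ± 0.10 and 1.69 ± 0.14. The claudin genes beside members were also called: Cldn3, 39279 bases from Cldn4, rose by 1.82 ± 0.23, and Cldn9, 137 bases from Cldn6, by 1.39 ± 0.42 (adjusted p = 0.00823). These were named after their values were seen, for their position beside members.

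Of 16 tested desmosome and adherens junction genes 12 were higher and 3 lower (median 1.11), against 23.9% and 33% of all genes. Perp rose by 2.63 ± 0.18, the desmoplakin gene Dsp by 1.93 ± 0.15 and Nectin2 by 0.96 ± 0.07, while Nectin3 fell by 1.50 ± 0.09. Of 13 other keratins 5 could be tested and 4 were higher (median 2.40), Krt42 (2.89 ± 0.40), Krt20 (2.87 ± 0.43), Krt15 (2.40 ± 0.43) and Krt17 (2.13 ± 0.52). A gene entered the test with 2 libraries at 1 TPM or more, and SUZ12-AID NPC with auxin held 2 libraries. A keratin high only there entered because it was high, so this count may follow from the filter. How many entered in this way was not tested. The list of mesenchymal switch genes split, with 4 higher and 4 lower of 8. Those that fell were Zeb2 (-2.58 ± 0.10) and Zeb1 (-1.67 ± 0.07), repressors of Cdh1, and Cdh2 (-1.62 ± 0.07) and Vim (-0.98 ± 0.04), genes that neural cells also use.

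In MTF2-AID NPC 5 of 11 epithelial factors, 6 of 19 surface and polarity genes and 3 of 20 tight junction genes were higher. So were 8 of 16 desmosome and adherens junction genes and 1 of 5 other keratins, where 5.03% of all genes were. In that line 1 desmosome or adherens junction gene was lower, where 3.11% of all genes were. F11r rose by 1.29 ± 0.18, Grhl3 by 0.96 ± 0.20 and the desmosomal cadherin Dsg2 by 1.23 ± 0.23, while Zeb1 fell by 0.21 ± 0.06. In AID-JARID2 NPC the counts higher were 3 of 11, 9 of 19, 8 of 20, 3 of 16 and 1 of 5, against 9.28% of all genes. The epithelial factors, the tight junction genes and the desmosome and adherens junction genes each had 1 lower, against 15.7%, the last being Nectin3 (-0.61 ± 0.08). Spint1 rose by 1.57 ± 0.15, St14 by 1.50 ± 0.19, Cgn by 1.05 ± 0.13 and Tfap2c by 1.04 ± 0.15, while the factor Foxa1 fell by 1.37 ± 0.10. Of the 8 mesenchymal switch genes 1 was higher (Twist1, 0.48 ± 0.12) and 1 lower in MTF2-AID NPC, and 0 were higher and 5 lower in AID-JARID2 NPC, Vim by -0.51 ± 0.04 among them. In untagged NPC the count was 0 in every one of these lists.

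**Figure D5:**
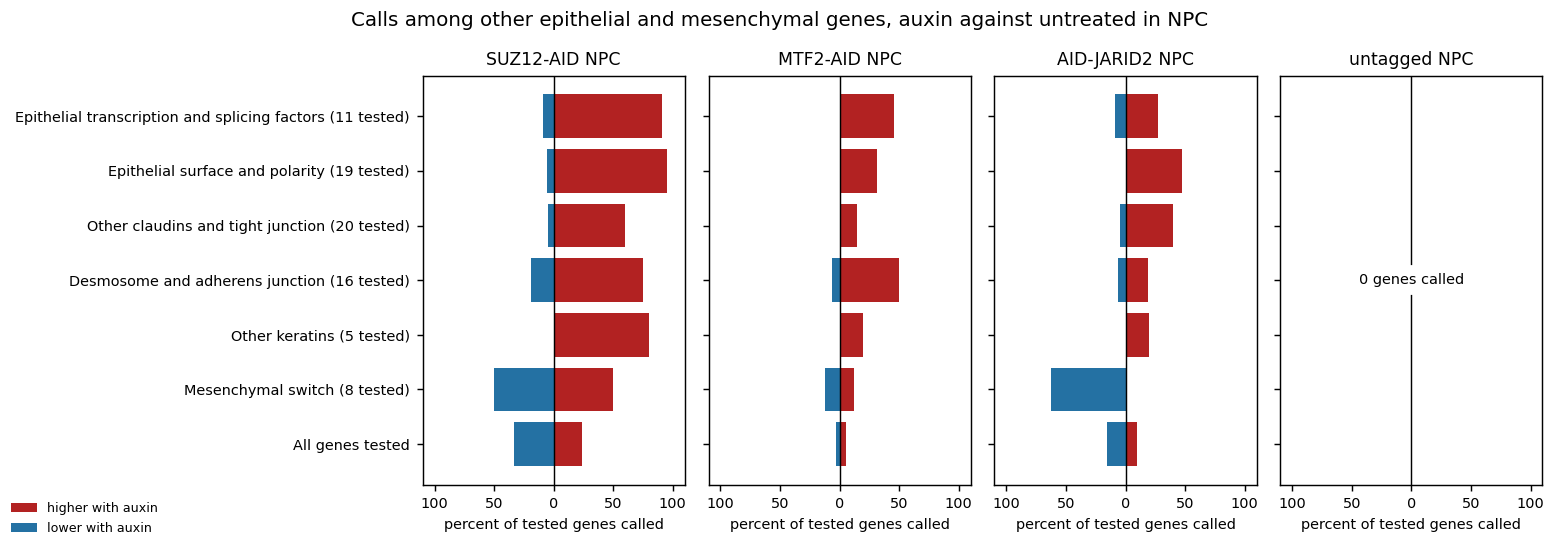
Share of tested genes of each list called higher (right of 0) or lower (left of 0) with auxin in NPC, in percent, beside all genes tested, in each line. In SUZ12-AID every epithelial list has more higher calls than the 23.9% of all genes, the mesenchymal list is split evenly, and the untagged line has 0 calls. A gene high only in the 2 SUZ12-AID libraries with auxin could pass the filter through them, which bears most on the short list of other keratins.

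Markers of other cell types also changed in NPC, some in the direction of the members and some against it. In SUZ12-AID NPC the 6 pluripotency markers, all called higher, summed to 546 to 559 TPM with auxin and 11.8 to 17.3 TPM untreated, and the 7 neural progenitor markers, all called lower, summed to 372 to 389 TPM with auxin and 1790 to 1940 TPM untreated. The 5 neuron markers, all called lower, summed to 391 to 439 TPM with auxin and 4160 to 4390 TPM untreated. Of all genes in that comparison 23.9% were called higher and 33% lower. Pluripotent cells express Cdh1, Elf3, Cldn4 and Epcam, as the ESC libraries show. Their part in the result was not tested. In SUZ12-AID ESC the pluripotency markers summed to 3140 to 3190 TPM with auxin and 3280 to 3320 TPM untreated.

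Of 10 trophectoderm markers 9 could be tested and 8 were higher in SUZ12-AID NPC, where 23.9% of all genes were called higher and 33% lower. The 10 markers summed to 221 to 226 TPM with auxin and 60.5 to 67.5 TPM untreated. In SUZ12-AID ESC they summed to 169 to 177 TPM with auxin and 146 to 152 TPM untreated. Cdx2, a defining trophectoderm factor, was not called (1.08 ± 0.53, adjusted p = 0.0896), and Eomes rose by 2.14 ± 0.38. The 6 surface ectoderm markers summed to 23.9 to 24.0 TPM with auxin and 2.21 to 2.59 TPM untreated. The 3 tested, Grhl3, Tfap2a and Krt15, were all higher, and Trp63, Krt5 and Krt14 were too low to be tested. In SUZ12-AID NPC 3 of the 6 averaged 1 TPM or more with auxin and 1 untreated. Since 2 libraries at 1 TPM were enough to enter, and that auxin group held 2, this count may follow from the filter. The 8 mesoderm markers summed to 153 to 155 TPM with auxin and 28.5 to 30.6 TPM untreated, with Mesp1 at 0 in both auxin libraries, and 5 of 6 tested were higher. In SUZ12-AID ESC the surface ectoderm markers summed to 14.5 to 16.2 TPM with auxin and 10.9 to 13.1 TPM untreated. The mesoderm markers there summed to 113 to 119 TPM with auxin and 102 to 110 TPM untreated. Part of each of these lists is therefore also expressed in ESC.

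The 9 endoderm markers summed to 108 to 113 TPM with auxin and 169 to 177 TPM untreated, with 5 of 7 tested higher and 1, Foxa2, lower. The 6 floor plate and notochord markers summed to 124 TPM with auxin and 413 to 425 TPM untreated, with 1 higher and 5 lower. Of all genes 23.9% were called higher and 33% lower. The part of these cell types in the members' changes was not tested.

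In AID-JARID2 NPC the pluripotency markers summed to 164 to 183 TPM with auxin and 49.9 to 65.2 TPM untreated. Of these 6 markers 5 were called higher, where 9.28% of all genes were. The neuron markers summed to 683 to 761 TPM with auxin and 2190 to 2630 TPM untreated, and the trophectoderm markers to 105 to 120 TPM with auxin and 68.1 to 77.2 TPM untreated, with 4 of 9 higher. Of 7 endoderm markers 0 were higher and 1 lower with auxin, and of 6 mesoderm markers 1 was higher and 1 lower. Of 6 floor plate and notochord markers 0 were higher and 4 lower, and of 7 neural progenitor markers 1 was higher and 4 lower, where 15.7% of all genes were lower. In untreated AID-JARID2 NPC, where the members already stood above untagged NPC, 5 of 6 pluripotency markers and 7 of 7 tested endoderm markers were higher than in untagged NPC, and 5 of 5 neuron markers were lower, against 11.8% of all genes higher and 12% lower. Of the 9 tested trophectoderm markers 5 were higher and 2 lower there. In MTF2-AID NPC the pluripotency markers summed to 54.0 to 65.3 TPM with auxin and 27.0 to 33.1 TPM untreated, with 2 of 6 higher, and the trophectoderm markers to 37.7 to 48.4 TPM with auxin and 27.3 to 30.5 TPM untreated, with 2 of 9 higher. The neuron markers in MTF2-AID NPC summed to 2850 to 2950 TPM with auxin and 3990 to 4180 TPM untreated, with 4 of 5 lower. In the same line 4 of 7 endoderm and 3 of 6 mesoderm markers were higher and 4 of 7 neural progenitor markers were lower, against 5.03% of all genes higher and 3.11% lower. Their part in the results of these lines was not tested.

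Some members share their locus with other annotated genes. An antisense gene overlaps Krt7 (Gm671) and Elf3 (Gm26642), and the long noncoding RNA gene Gm36026 overlaps Krt8 on the other strand. The libraries keep strand, but whether the counting used it is not given in the sources used here. Gm36026 was listed at 0 to 0.602 TPM in all libraries, where Krt8 was 6.84 TPM or more. Krt8 also has a processed pseudogene copy, Krt8-ps, on chromosome 7. Gm671, Gm26642 and Krt8-ps were not among the gene symbols with TPM values, so no level could be read under these names.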

How the data were processed

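The 47 libraries measure polyadenylated RNA by strand-specific sequencing. The authors deposited TPM, 1 value per gene symbol and library, each library summing to 1000000. STAR 2.6.1d and mm10 are named in the submitters' processing notes. How reads were turned into TPM, and with which gene models, was not given in the sources used here. Depth was recovered from the steps of low TPM: all values above 0 (100%) came out as whole reads to within 0.001 reads. Read numbers cover counting error only. Coordinates are from GENCODE M21 (GRCm38, the same build as mm10), where all 10 members matched.

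The test was limma 3.58.1 (R 4.3.3) on log2(TPM + 0.5), with a trended and robust prior. Each stage had a fit of its 8 groups, and comparisons between stages a fit of all 16. A gene entered with at least 2 libraries of the fit at 1 TPM or more, and a call was a two-sided p under 0.05 after Benjamini-Hochberg adjustment over all genes entered. SUZ12-AID NPC with auxin had 2 libraries, and where 1 was left out the lone library was assumed to vary like the other groups. The alternatives were a pseudocount of 0.1 or 1, no filter on low values, scaling by the median of ratios, a replicate block, limma-voom on the recovered reads, a fit of the compared groups alone, and leaving out each library. The code was tested on simulated data.

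The members, lists and markers were chosen with earlier results of these data known. The genes named are the members, the 3 genes most like each, up to 4 called genes of a list with the smallest p, Suz12, and single markers; some of these are not reported here. MTF2-AID and AID-JARID2 NPC titles say day 0, against NPC and 5 days in the other labels, which were followed.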

Additional observations from a re-analysis of the deposited data

Results flagged for a closer look

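The auxin effect in NPC was set against that in the untagged line, and the difference between the effects was tested with limma. All values are log2 differences, tagged line minus untagged line. In SUZ12-AID the difference was called for all 10 members: 1.80 for Krt7, 1.96 for Krt8, 2.31 for Krt18, 1.72 for Krt19, 4.11 for Cldn4, 5.30 for Cldn6, 1.94 for Cldn7, 3.78 for Epcam, 3.45 for Cdh1 and 2.11 for Elf3. In MTF2-AID it was called for 5 members: 0.99 for Krt7, 0.67 for Krt8, 0.75 for Krt18, 1.14 for Cdh1 and 0.86 for Elf3. In AID-JARID2 it was called for 7 members: 0.70 for Krt7, 0.76 for Krt8, 0.77 for Krt18, 1.47 for Cldn4, 1.22 for Cldn6, 1.24 for Epcam and 1.82 for Cdh1.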

How the results depend on the processing

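No called change turned its direction under any alternative. Changes near 0 that were not called did turn, such as Epcam in AID-JARID2 with auxin between stages (-0.10 to 0.28) and Cldn7 in MTF2-AID NPC with auxin (-0.16 to 0.87). Counts of members called moved by more than 1.5 times mainly in ESC. The SUZ12-AID ESC auxin count of 5 was 3 with no filter and 3 with median of ratios scaling, and 1 to 4 with a library left out (1 without auxin replicate 1). The MTF2-AID ESC count of 2 was 1 with no filter, 1 with only the compared groups, and 1 to 1 without any of its 6 libraries. The AID-JARID2 ESC count of 1 was 0 with only the compared groups. The untagged ESC count of 1 was 0 with no filter, 0 with the replicate block, and 0 to 1 with a library left out. Between untreated ESC lines, the SUZ12-AID count of 1 was 2 with limma-voom, 2 with only the compared groups, and 0 to 0 without any of its 6 libraries. The MTF2-AID count of 2 was 2 to 4 (4 without MTF2-AID untreated replicate 2), and the AID-JARID2 count of 2 was 1 with only the compared groups and 1 to 2 with a library left out. In NPC, the MTF2-AID minus AID-JARID2 count of 1 was 0 to 2, and the count of 2 for the MTF2-AID stage difference with auxin minus untreated was 1 with only the compared groups. Beyond fewer samples or genes in a fit, the causes were not tested.

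Replicate numbers, taken from the titles, showed no strong pairing: 0 of 23 pairs correlated over the set cut of 0.1 in their deviations (-0.033 to 0.085). Of the 23 auxin libraries, 12 correlated best with the untreated library of their own number, out of 3 candidates each. Whether a weak pairing exists was not tested. The SUZ12-AID NPC auxin libraries are numbered 1 and 2 in their titles but 2 and 3 in their library names, so their 2 pairs and their place in the block may not be right. With the replicate block the SUZ12-AID ESC count was 4, against 5 without it, and the MTF2-AID minus untagged NPC count was 6, against 5. Depth limits the low members: 11 reads of Krt19 in untreated untagged ESC and 14 of Cldn6 in untreated SUZ12-AID NPC.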
